A study of Mus musculus with 22 samples.

Results

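The nuclear-encoded subunits of the oxidative phosphorylation system were followed through the brains of 22 aged male C57BL/6J mice. Members were taken by gene symbol (Nduf subunits of complex I, Sdh of complex II, Uqcr and Cyc1 of complex III, Cox of complex IV and Atp5 of complex V), leaving out assembly factors and 14 rows named as pseudogenes. The rule gave 92 of 56748 rows of the count table: 42 for complex I, 4 for complex II, 9 for complex III, 19 for complex IV and 18 for complex V. No measured value entered the choice.

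Poly(A) RNA of the whole brain was sequenced at 17.5 months of age. CtrlVeh (3 mice) and CtrlVehLPS (3) had been given vehicle as young adults and had no chemical exposure. GWVeh (4), GWVehLPS (4), GWCBD30 (4) and GWCBD30LPS (4) were injected with 0.7 mg/kg pyridostigmine bromide, an acetylcholinesterase inhibitor, and 200 mg/kg permethrin, a sodium channel insecticide, once a day for 10 days from 10 weeks of age, which models Gulf War illness. The GWCBD30 arms later received cannabidiol (CBD) at 30 mg/kg, daily for 28 days and then every 2 days for 2 weeks, and the other arms received its vehicle. The LPS groups got 0.33 mg/kg of Escherichia coli lipopolysaccharide, which provokes systemic inflammation, and the others PBS, 24 h before the brain was taken. CBD was analysed in exposed mice only.

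Complexes I to IV form the respiratory chain of the inner mitochondrial membrane. Complexes I and II pass electrons from NADH and succinate to ubiquinone, complex III hands them to cytochrome c, and complex IV passes them to oxygen. The proton gradient that complexes I, III and IV build is used by complex V, the ATP synthase, and neurons depend on this supply for ion pumping and synaptic transmission. All subunits of complex II are encoded in the nucleus, while the other complexes also hold subunits from the mitochondrial genome, so their assembly needs both.

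The libraries held 17.15 to 31.15 M counts each (median 21.56 M). Markers of neurons, astrocytes, oligodendrocytes and microglia were above the floor of 3 counts in the median library for all 7, 5, 5 and 5 listed genes, as a brain label requires. CtrlVehLPS replicate 1 stood apart, with 147.3 CPM (counts scaled to library size) summed over 6 cerebellar neuron markers against a median of 974.9, the highest olfactory bulb sum (102.3 against 28.74) and 240 CPM of pancreatic acinar markers against 3.516. GWVeh replicate 1 had the highest red blood cell sum, 762.3 CPM against a median of 187.7. GWVehLPS replicate 2 had the highest sums of astrocyte (2469 CPM, median 2011), oligodendrocyte (6212, median 4946), microglia (280, median 178.6) and choroid plexus markers (742.3, median 534.6). These medians are over all 22 libraries, with PBS and LPS. Its group mates, also given LPS, had 2200 to 2240, 4304 to 5168, 222.3 to 261.1 and 482.8 to 725.3 CPM in that order. Microglia sums averaged 156.6 CPM in GWVeh and 256 in GWVehLPS, so much of that gap to the median is shared by the group. Member medians and leading values that move with the libraries named here are given with and without them below. The part of these libraries in the member values was not tested beyond that. In whole-tissue RNA, fewer cells of a type and less RNA per cell cannot be told apart.

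Promoters of the members were searched for motifs, and the 4 sequences printed show where the motifs searched lie. Whether the motifs bear on the member levels in these libraries was not tested. RefSeq (GRCm38.p6) promoters, 250 bases before to 50 after the start, were matched to 69 member symbols by name. The NRF1 motif (GCGCA and GCGC with any 1 base between them), the binding sequence of a transcription factor known for nuclear genes of mitochondria, occurred on either strand in 17 of 69 (24.6%) and in 5.19% of 27025 promoters of all genes. The GABPA core CCGGAAG occurred in 17 (24.6% against 9.93%) and the YY1 motif AAGATGGCG in 7 (10.1% against 1.64%). The ERRA motif TCAAGGTCA was found in 2 (2.9% against 0.466%). At least 1 of these motifs was found in 35 of 69 member promoters (50.7%) and in 15.5% of all promoters. The core of a TATA box, TATAAA, occurred in 8 (11.6% against 15.7%). Promoters of 61 cytosolic ribosomal protein genes held the GABPA core in 41.0% and the NRF1 motif in 8.2%. These are matches of letters and not binding sites. Below, capitals mark the matches, read on the gene's strand, where CTTCCGG is the GABPA core of the other strand.
Cox6a1, chr5:115348909-115349208, minus strand, NRF1 and GABPA motifs, a major complex IV gene: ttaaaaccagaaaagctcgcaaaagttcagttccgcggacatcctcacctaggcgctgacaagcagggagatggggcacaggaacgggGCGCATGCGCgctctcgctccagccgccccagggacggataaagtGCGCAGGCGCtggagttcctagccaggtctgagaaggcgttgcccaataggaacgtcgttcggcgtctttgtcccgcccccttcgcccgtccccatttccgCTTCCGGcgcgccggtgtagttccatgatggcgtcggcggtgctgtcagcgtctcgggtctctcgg
Atp5h, chr11:115419870-115420169, minus strand, NRF1 and GABPA motifs, the stalk subunit d of complex V: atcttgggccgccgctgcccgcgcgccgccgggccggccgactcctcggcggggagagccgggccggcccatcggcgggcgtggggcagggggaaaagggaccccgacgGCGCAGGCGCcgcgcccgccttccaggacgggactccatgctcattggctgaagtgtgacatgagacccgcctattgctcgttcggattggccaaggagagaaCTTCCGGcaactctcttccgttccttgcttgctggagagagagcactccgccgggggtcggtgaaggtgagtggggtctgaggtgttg
Ndufs7, chr10:80249199-80249498, plus strand, a YY1 motif and a TATAAA match, an iron-sulfur subunit of complex I: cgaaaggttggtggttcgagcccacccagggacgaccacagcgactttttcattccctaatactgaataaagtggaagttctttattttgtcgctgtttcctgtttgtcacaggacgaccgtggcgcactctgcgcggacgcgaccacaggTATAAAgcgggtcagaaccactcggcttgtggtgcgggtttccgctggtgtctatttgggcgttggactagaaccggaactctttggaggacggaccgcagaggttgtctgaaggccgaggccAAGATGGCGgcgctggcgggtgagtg
Cox8b, chr7:140900397-140900696, minus strand, a TATAAA match only, the muscle-type counterpart of Cox8a: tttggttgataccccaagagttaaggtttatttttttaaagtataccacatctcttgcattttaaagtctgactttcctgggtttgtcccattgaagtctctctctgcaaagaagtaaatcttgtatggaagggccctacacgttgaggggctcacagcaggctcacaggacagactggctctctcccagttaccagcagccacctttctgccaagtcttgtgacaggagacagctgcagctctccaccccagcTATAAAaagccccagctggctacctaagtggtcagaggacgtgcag
Cox6a1 held the NRF1 motif at more than 1 place. Cox8b, which was at most 42 counts in any library, held none of the first group of motifs. Neither did Atp5b, the member with the highest mean CPM (1120).

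Member transcripts took 0.8793% to 1.006% of a library's counts (median 0.9114%). The 13 mitochondrially encoded subunits took 3.344% to 4.502%, although poly(A) selection need not recover them evenly. Of the 92 members, 87 passed the filter on low counts and 78 averaged at least 10 CPM. These 78 are called abundant here. Their genes lay on 19 chromosomes in all. Levels between genes were compared as CPM per kb of the principal transcript, and on that scale the medians of the abundant members were 69.43 in complex I, 75.84 in complex II, 103.2 in complex III, 142.8 in complex IV and 109.6 in complex V. The choice of length bears on this order. Per kb of the union of all annotated exons of a gene, complex IV was again highest (86.36) but complex V lowest (33.83), with 41.06, 53.34 and 72.84 in complexes I to III. Levels per kb below are on the principal transcript unless the exon union is named.

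**Figure D1:**
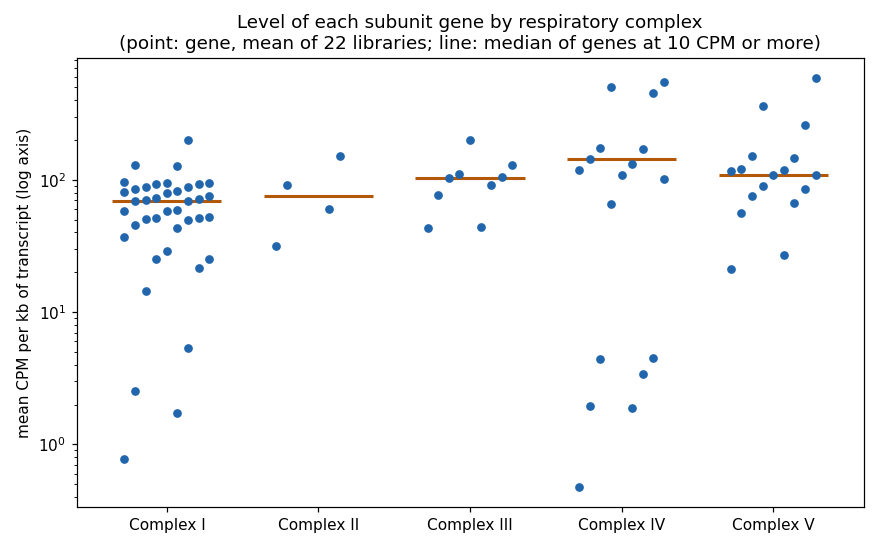
Mean level of each kept subunit gene over 22 libraries, in CPM per kb of transcript on a log axis, by complex, with the line at the median of genes at 10 CPM or more. On this length, that of the principal transcript, abundant complex IV genes have the highest median (142.8), and complex IV also holds most of the points under 10, which are tissue-restricted isoform genes.

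Complex V held the highest level per kb of principal transcript, but not per kb of exon union, where Cox8a of complex IV led. Atp5b, the catalytic beta subunit, averaged 584.5 CPM per kb (264.3 by exon union) and Atp5a1, the alpha subunit beside it, 359.6 (283.4). The lowest abundant member of the complex was Atp5g1 at 21.04, or by exon union Atp5l at 9.254. Atp5b CPM ran from 1038 (GWCBD30 replicate 4) to 1281 (GWVehLPS replicate 2), and Atp5a1 from 829.3 to 988.6 in the same libraries. The c-ring, through which protons pass, has 3 genes for 1 mature protein, because the differing presequences are cut off on import. Atp5g3 supplied 71.1% ± 1.16 of their summed CPM per kb (SD, n = 22), Atp5g2 23.2% ± 1.12 and Atp5g1 5.75% ± 0.31. The share of Atp5g3 stayed between 68.1% and 73% in every library. These shares rest on a principal transcript of 4715 bases for Atp5g1 against 731 for Atp5g2 and 723 for Atp5g3. By exon union they were 60.15% for Atp5g3, 25.79% for Atp5g2 and 14.07% for Atp5g1, and of CPM not divided by length 53.9%, 17.7% and 28.4%, so the order of the lower pair depends on the length.

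Complex IV was led by Cox4i1, the largest nuclear subunit and a regulatory one, at 551.8 CPM per kb, followed by Cox8a (500.6) and Cox6a1 (450.5). By exon union the order turned to Cox8a (444.8), Cox6a1 (366.4) and Cox4i1 (272.3). Its lowest abundant member was Cox7b at 65.51, or by exon union Cox5a at 31.27. Cox5a averaged 65.7 CPM, between 59.59 and 80.96 over the libraries. Cox7a2l, placed here by its symbol, is known as a supercomplex assembly factor and averaged 127.6 CPM.

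Complex III spanned 43.57 (Uqcrq) to 199 CPM per kb (Uqcrh, the hinge protein), and by exon union 27 (Uqcrb) to 87.99 (Uqcrh). Its core subunit Uqcrc1 averaged 212.6 CPM, cytochrome c1 (Cyc1) 156.9 and the Rieske iron-sulfur protein Uqcrfs1 105.1. In complex II, the flavoprotein Sdha stood at 152.6 CPM per kb and the membrane anchor Sdhc at 31.54. Sdha was the steadiest abundant member, with a pooled within-group SD of 0.0352 on the log2 scale: it lay between 416.4 (GWCBD30 replicate 4) and 468.9 CPM (GWVehLPS replicate 2). Its iron-sulfur partner Sdhb averaged 104.9 CPM.

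On principal transcript length, complex I had the widest ratio of highest to lowest among abundant members, from 5.317 CPM per kb (Ndufb2) to 199 (Ndufa4). The value of Ndufb2 depends on its principal transcript of 4371 bases, longer than those of its neighbours in the complex. Ndufa4 carries a complex I symbol but is now known as a complex IV subunit, and it was counted by symbol. The core subunits Ndufs1, which holds iron-sulfur clusters, and Ndufv1, which binds NADH, averaged 132.6 and 156.3 CPM. The acyl carrier protein Ndufab1 is a complex I subunit that the symbol rule does not take.

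Members at or near the floor were few. Ndufb11b (3 counts over all libraries), Ndufa11b (14), Cox6c2 (33), Cox8c (0) and a second row named Atp5o (0) did not pass the filter. Cox8c allows up to 3 counts in a library. GENCODE M21 lists Ndufb4c, Ndufs6b, Ndufa11b and Cox6c2 as processed pseudogenes and the Ndufb1 row as a bidirectional promoter lncRNA, so their counts may be shared with their parent or neighbouring genes. Ndufs6b (over 3 counts in 15 libraries) and Cox7b2 (in 13) were the lowest members kept.

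Tissue-restricted isoforms were a small share of each pair per kb of transcript. Cox4i2, known from lung and vascular cells, made up 0.34% ± 0.113 of the Cox4i1 and Cox4i2 pair (SD, n = 22). Cox8b, known from heart, muscle and brown fat, made up 0.391% ± 0.204 of its pair with Cox8a, and Cox7a1, of similar origin, 2.52% ± 0.747 of its pair with Cox7a2. Cox6b2, the testis form, made up 2.61% ± 0.545 beside Cox6b1. By exon union the shares of Cox4i2 (0.6387%) and Ndufa4l2 (1.659%, described below) were over 1.5 times larger and that of Cox6b2 (1.594%) over 1.5 times smaller. Markers of striated muscle summed to 6.133 to 11.06 CPM over 8 genes, those of brown adipocytes to 1.922 to 4.501 CPM over 3 genes and those of testis germ cells to 0.1519 to 0.955 CPM over 6 genes. Their part in the isoform values was not tested.

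Cox6a2, the heart and muscle form that fast-spiking interneurons also use, had 0.964% ± 0.19 of its pair with Cox6a1. Its CPM values were 1.992, 2.075 and 2.057 in CtrlVeh and 2.847, 2.701 and 3.336 in CtrlVehLPS. In GWVeh they were 3.351, 3.766, 2.818 and 1.837, and in GWVehLPS 3.741, 3.544, 3.586 and 2.935. CtrlVeh libraries were low and close together, and GWVeh replicate 4 and GWCBD30 replicate 4 (1.924) lay below all of them. Over both LPS states the exposure difference was 0.374 ± 0.159 on the log2 scale (SE, adjusted p = 0.627), the smallest p among members in that comparison. Parvalbumin interneuron markers summed to 629.9 to 684.8 CPM in CtrlVeh and 590 to 694.1 CPM in GWVeh. With LPS they summed to 473.9 (replicate 1) to 707.7 CPM in CtrlVehLPS and 636.2 to 696.8 CPM in GWVehLPS. The listed genes went different ways in CtrlVehLPS replicate 1, the library low in cerebellar markers. Pvalb (66.1 CPM) and Kcnc1 (273.6) were below both group mates, and Erbb4 (84.14) and Tac1 (50.06) above both. The low sum there is thus not a reading of interneurons alone. The part of these markers in the Cox6a2 values was not tested.

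Ndufa4l2, an HIF target known from pericytes, made up 0.866% ± 0.226 of its pair with Ndufa4. It had 1.708, 0.876 and 0.9703 CPM in CtrlVeh and 1.423, 1.356, 1.782 and 1.312 CPM in GWVeh. With LPS it had 1.479, 1.463 and 1.405 CPM in CtrlVehLPS and 1.504, 2.166, 2.253 and 2.028 CPM in GWVehLPS. CtrlVeh and GWVeh overlapped, while the GWVehLPS libraries lay above CtrlVehLPS. The exposure difference pooled over LPS states was 0.392 ± 0.195 (adjusted p = 0.641). Markers of pericytes and smooth muscle lay between 56.2 and 69.76 CPM over all libraries.

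**Figure D2:**
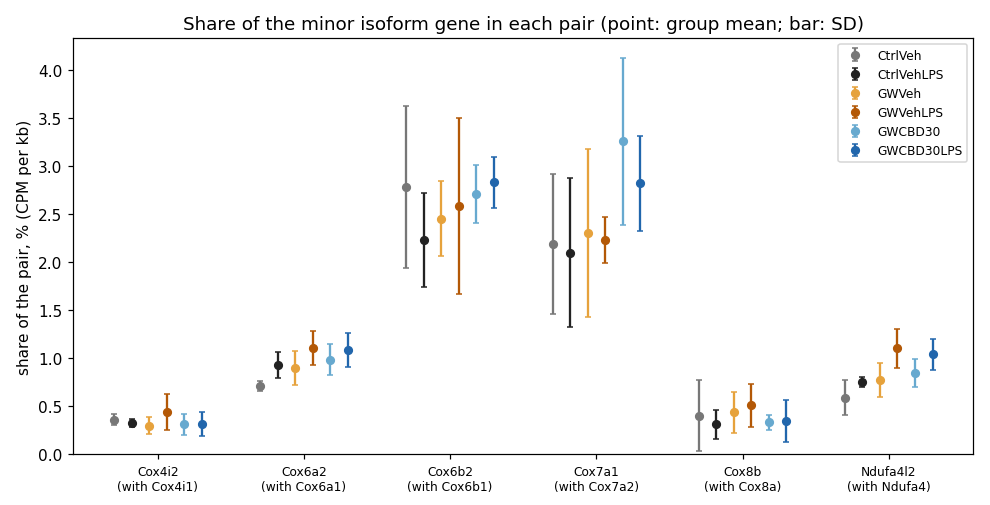
Share of the minor isoform gene in its pair, in percent of the summed CPM per kb, for 6 pairs and 6 groups (points: group means, bars: SD, n = 3 or 4). On principal transcript length, Cox6b2 and Cox7a1 lie between 2.1% and 3.26% and the other minor isoforms near or under 1%, with overlapping bars in most pairs.

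Some libraries differed from their group mates in most subunits at once. Among the 78 abundant members, GWVehLPS replicate 2 lay above the mean of its group mates in 75, by a median of 0.205 on the log2 scale, and GWVeh replicate 1 in 74, by 0.147. GWVeh replicate 4 lay below in 74 (-0.107), GWVehLPS replicate 3 in 71 (-0.121), and GWVeh replicate 3 and CtrlVehLPS replicate 2 in 68 each. A library high in its group lowers its mates on this measure, so the counts within a group are not independent. In other libraries the members were divided, as in GWCBD30 replicate 1 (45 above, 33 below) and GWCBD30LPS replicate 4 (38 above, 40 below). GWCBD30LPS libraries were closer together, with medians between -0.0519 and 0.0424. Where a library differed in most members, the pattern crossed the complexes, as the plot of complex levels by library shows.

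The mean log2 CPM of the abundant members was 6.36, 6.27 and 6.254 in CtrlVeh and 6.45, 6.283 and 6.323 in CtrlVehLPS. In GWVeh it was 6.459, 6.385, 6.285 and 6.259, and in GWVehLPS 6.271, 6.467, 6.227 and 6.284. GWCBD30 had 6.262, 6.317, 6.219 and 6.223, and GWCBD30LPS 6.314, 6.281, 6.333 and 6.304. All groups overlapped in part with their neighbours, and the range of the 6 group means (0.0968) was little more than the pooled within-group SD (0.0744). Cytosolic ribosomal protein genes were also high in GWVeh replicate 1 (6.622 against 6.263 in GWVeh replicate 4) and in CtrlVehLPS replicate 1 (6.628), but GWVehLPS replicate 2 was at 6.492, near GWVehLPS replicate 1 at 6.467.

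**Figure D3:**
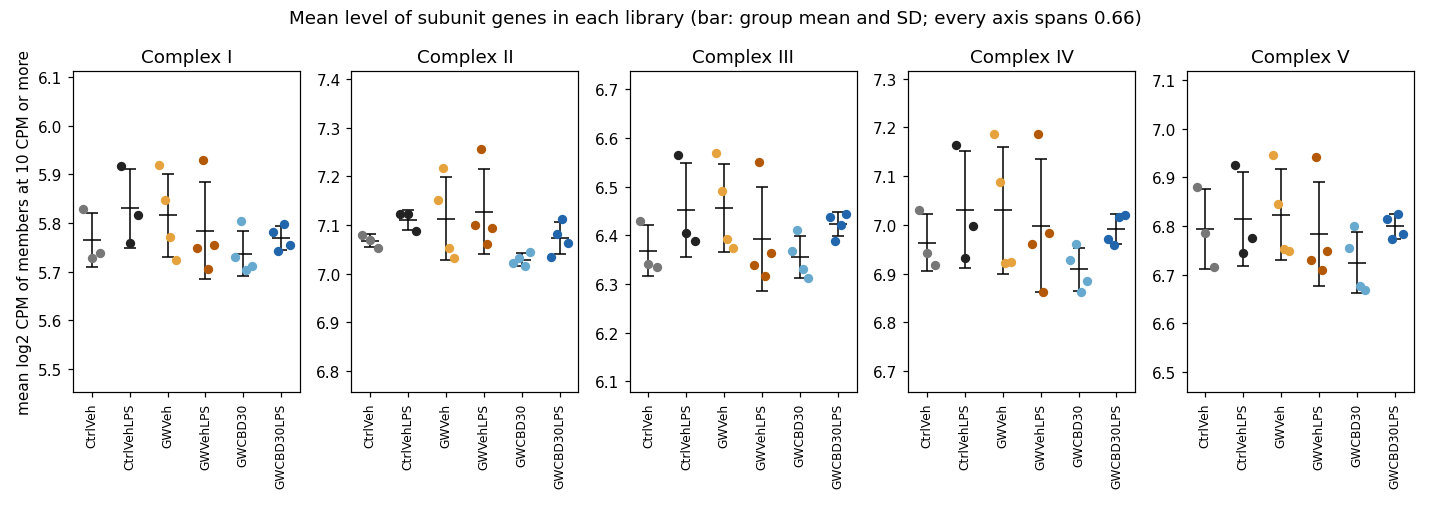
Mean log2 CPM of the members at 10 CPM or more in each library, by complex and group (points: libraries, bars: group mean and SD, equal axis spans). GWVehLPS replicate 2 is the top point of its group in each panel, and GWVeh replicate 1 is the top point of its group in all panels except complex II, where replicate 2 is.

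Each group comparison was read from 1 edgeR fit over all 20026 genes tested, at adjusted p under 0.05. Of the 87 kept members, 0 passed in any of the 12 comparisons. Counts at an unadjusted p under 0.05 are set here beside the share of all genes at that p, and the share of all genes called at the adjusted threshold is given as percent called. With LPS in control mice, 7 members (8.05%) had such a p against 12.2% of all genes (0.494% called). With LPS there were 3 (3.45%) in exposed vehicle mice, against 10.4% (0.939% called), and 4 (4.6%) in exposed CBD mice, against 8.22% (0.00499% called).

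For exposure there were 7 with PBS (8.05%), against 8.8% of all genes (0% called), and 2 with LPS (2.3%), against 7.73% (0.00499% called). For CBD there were 18 with PBS (20.7%), against 6.43% (0% called), and 0 with LPS, against 7.1% (0.24% called). The interaction of exposure with LPS had 8 (9.2%), against 8.43% (0% called), and that of CBD with LPS 4 (4.6%), against 5.69% (0.0449% called). Averaged over arms or LPS states, LPS had 9 (10.3%), against 17.8% (3.52% called), exposure 1 (1.15%), against 7.76% (0.03% called), and CBD 9 (10.3%), against 8.35% (0% called). Apart from CBD with PBS, the members' share was below that of all genes or little above it.

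Most of these counts depended on single libraries. For LPS in control mice the count was 0 without CtrlVeh replicate 2, 2 without CtrlVeh replicate 3, 3 without CtrlVehLPS replicate 3 and 2 with bulb and cerebellar covariates. With 1 library left out at a time, the counts for LPS ran from 0 to 9 in exposed vehicle mice (9 without GWVehLPS replicate 2), from 1 to 7 in exposed CBD mice and from 4 to 13 over all arms. Those for exposure ran from 2 (without CtrlVeh replicate 2) to 12 (without GWVeh replicate 4) with PBS, from 0 (without CtrlVehLPS replicate 1) to 11 (without GWVehLPS replicate 2) with LPS and from 0 to 5 averaged. Those for CBD averaged ran from 3 to 15. Both interactions reached 16 without GWVehLPS replicate 2, and their lowest counts were 3 for exposure and 1 for CBD.

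DESeq2 also called 0 members in each comparison, and limma voom called 0 except Ndufa12 with LPS in control mice and Ndufb4 with LPS over all arms.

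The intervals limit how large a change could have been missed. In the CBD comparison with PBS, 77 of 78 abundant members had a 95% interval of the fold change inside 1.5-fold in either direction, and the counts for LPS in the 3 arms were also 77 of 78. The count was 76 for exposure with PBS, and 72 and 74 for the interactions of LPS with exposure and with CBD. Of all genes at 10 CPM or more, 98.5% lay inside this limit for CBD with PBS. For LPS in control, exposed vehicle and exposed CBD mice 94.9%, 97% and 98.3% did. The shares were 97.4% for exposure with PBS, and 87.6% and 93.8% for the interactions.

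**Figure D4:**
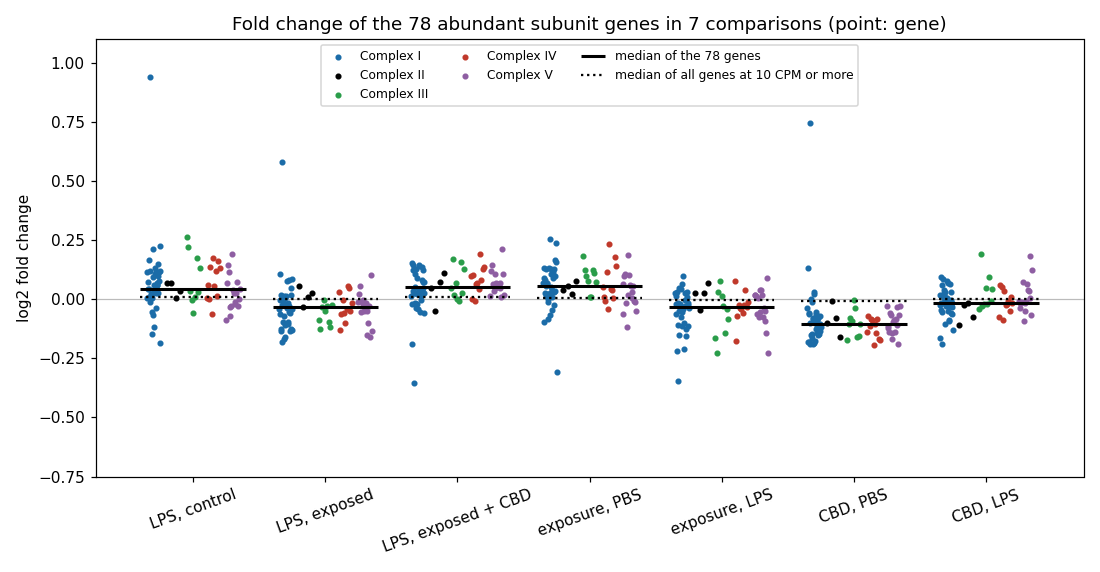
log2 fold change of the 78 abundant members in 7 comparisons of 2 groups, coloured by complex, with the median of the 78 (solid) and of all genes at 10 CPM or more (dotted). Most points lie close to 0 in every comparison, the CBD comparison with PBS has the lowest median (-0.104), and the separate high points are Ndufa12.

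Member medians with LPS lay close to the median of all genes in each arm, with signs that differed between arms. In control mice the members' median log2 fold change was 0.041 (64 of 87 positive, all genes -0.00414), in exposed vehicle mice -0.0306 (26 positive, all genes -0.00468) and in exposed CBD mice 0.0523 (68 positive, all genes -0.00462). By complex in control mice the medians were 0.0601, 0.051, 0.0357, 0.0551 and 0.0246 for I to V. In exposed CBD mice all 17 complex V members were positive, with a median of 0.063, whereas all 9 complex III members were negative in exposed vehicle mice (-0.0512). The control median was 0.00879 without CtrlVehLPS replicate 1, 0.0772 without CtrlVehLPS replicate 2 and -0.0252 with the scores of olfactory bulb and cerebellum as covariates. That of exposed vehicle mice was 0.0113 without GWVeh replicate 1 and -0.0847 without GWVehLPS replicate 2.

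The members with the smallest p with LPS in control mice were Ndufs8, an iron-sulfur subunit of complex I, and Uqcr11, a small complex III subunit. Ndufs8 had 53.39, 45.18 and 49.29 CPM in CtrlVeh and 63.37, 52.38 and 56.83 CPM in CtrlVehLPS, and the groups overlapped (log2 fold change 0.226 ± 0.0868, adjusted p = 0.27). Uqcr11 had 51.8, 43.15 and 42.38 against 66.69, 46.25 and 50.92 CPM (0.263 ± 0.111, adjusted p = 0.332). CtrlVehLPS replicate 1 was the high library for both. Without it the differences were 0.149 for Ndufs8 (adjusted p = 0.542) and 0.0884 for Uqcr11 (adjusted p = 0.778), and the Uqcr11 difference turned to -0.0252 with bulb and cerebellar scores as covariates. In exposed vehicle mice the leading members were Atp5c1, the gamma subunit that forms the rotor shaft (-0.151 ± 0.0662, adjusted p = 0.399), and Ndufs6 (-0.182 ± 0.0893, adjusted p = 0.48). In exposed CBD mice they were Cox8a (0.191 ± 0.0699, adjusted p = 0.458) and Ndufa10 (0.145 ± 0.0644, adjusted p = 0.557).

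Over all 3 arms, LPS had a member median of 0.0206 (all genes -0.00719, and 0.00416 for members without CtrlVehLPS replicate 1 and 0.0339 without CtrlVehLPS replicate 2), with Ndufs6b (-1.03 ± 0.359, adjusted p = 0.109) and Cox8a (0.121 ± 0.0426, adjusted p = 0.112) in front. Ndufs6b had at most 16 counts in a library and is a processed pseudogene by annotation. Cox8a had 288.1, 259.6 and 256.4 CPM in CtrlVeh, 310.2, 275.5, 255.9 and 260.4 in GWVeh and 245.4, 264.8, 251.2 and 235.6 in GWCBD30. With LPS it had 328.2, 259.4 and 284 in CtrlVehLPS, 269.2, 318, 267.3 and 289.9 in GWVehLPS and 281.9, 271.6, 286.9 and 297.8 in GWCBD30LPS. Groups overlapped in the control and exposed vehicle arms and not in the CBD arm. Cox8a passed the threshold without GWVeh replicate 1 (0.143, adjusted p = 0.0415) and with no filter on low counts (0.127, adjusted p = 0.0375).

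With PBS, exposed mice had a member median of 0.0549 above controls (67 of 87 positive, all genes 0.000976), and all 9 complex III members were positive (median 0.0973). Cox4i1 had the smallest p: 396.5, 385.5 and 384.8 CPM in CtrlVeh and 510.6, 484.7, 426 and 406.2 CPM in GWVeh. Every GWVeh library lay above every CtrlVeh library, by 0.232 ± 0.0735 on the log2 scale (adjusted p = 0.44, and 0.174 with adjusted p = 0.718 without GWVeh replicate 1). Ndufb6, an accessory complex I subunit, followed (0.236 ± 0.0827, adjusted p = 0.447). The median was 0.0255 without GWVeh replicate 1. With LPS the exposure median was -0.0288 (33 positive), with Ndufs5 (-0.212 ± 0.0826, adjusted p = 0.51) and Cox6c (-0.178 ± 0.0812, adjusted p = 0.62) in front, and it turned to 0.0326 without CtrlVehLPS replicate 1 and was -0.0705 without GWVehLPS replicate 2. Averaged over LPS states it was 0.0206, with -0.00441 without GWVeh replicate 1 and 0.0432 without CtrlVehLPS replicate 1.

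CBD with PBS gave the lowest member median of the comparisons of 2 groups. It was -0.103, with 79 of 87 members negative, against 0.000502 over all genes, and the complexes were alike: -0.101, -0.0893, -0.106, -0.112 and -0.096 for I to V. All 17 complex V, 9 complex III and 4 complex II members were negative. The 18 members with an unadjusted p under 0.05 (20.7%) stood beside 7.96% of genes at 10 CPM or more, and the smallest adjusted p was 0.752. Single libraries carried that count: it was 0 without GWVeh replicate 1, 3 without GWVeh replicate 2 and 6 without GWCBD30 replicate 3 or 4, and 26 without GWVeh replicate 4. The median stayed negative, between -0.137 and -0.0685, whichever library was left out.

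Cox4i1 again had the smallest p, at 412, 419, 394.3 and 372.9 CPM in GWCBD30 against the GWVeh values above (-0.193 ± 0.0677, adjusted p = 0.752, and -0.137 with adjusted p = 0.998 without GWVeh replicate 1). The groups overlapped, since GWVeh replicate 4 was below GWCBD30 replicates 1 and 2, and GWCBD30 lay around the CtrlVeh level. Sdhc followed, at 109, 117, 92.5 and 95.34 CPM in GWVeh and 93.65, 92.79, 91.42 and 92.38 CPM in GWCBD30 (-0.16 ± 0.0657, adjusted p = 0.752, and -0.0958 with adjusted p = 0.991 without GWVeh replicate 2). The exposure and CBD comparisons with PBS share the 4 GWVeh libraries, so their opposite signs are not independent. Cytosolic ribosomal protein genes had medians of 0.145 and -0.149 in the same comparisons, and red blood cell markers summed to 127.2 to 762.3 CPM in GWVeh, 107.8 to 310.4 in GWCBD30 and 149 to 188.7 in CtrlVeh. Oligodendrocyte markers summed to 6017, 5810, 4834 and 4461 CPM in GWVeh, 4062 to 4809 in GWCBD30 and 4555 to 5057 in CtrlVeh, so GWVeh replicates 1 and 2, the high libraries for Cox4i1 and Sdhc, were also high in these. Astrocyte markers lay between 1806 and 2147 CPM in GWVeh and between 1702 and 1887 in GWCBD30. Their part in the member values was not tested.

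Under LPS the CBD median was -0.0164, with Sdhd (-0.111 ± 0.0588, adjusted p = 0.745) and Ndufb2 (-0.165 ± 0.0887, adjusted p = 0.749) in front, and 0.047 without GWVehLPS replicate 2. Averaged over LPS states it was -0.0544, and -0.0232 without GWVehLPS replicate 2, led by Ndufv3 (-0.147 ± 0.0579, adjusted p = 0.507) and Sdhc (-0.118 ± 0.0463, adjusted p = 0.507).

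The difference between LPS responses was tested as an interaction. Exposed against control mice had a member median of -0.0691, with Ndufb8 (-0.37 ± 0.133, adjusted p = 0.45) and Cox4i1 (-0.273 ± 0.103, adjusted p = 0.474) in front. It was -0.0116 with bulb and cerebellar scores as covariates and, with libraries left out, -0.134 without GWVehLPS replicate 2 and -0.0401 without CtrlVehLPS replicate 1, and ribosomal protein genes had -0.215. Exposed CBD against exposed vehicle mice had 0.0792 (74 of 87 positive), which was 0.141 without GWVehLPS replicate 2 and 0.0472 without GWVehLPS replicate 3, led by Ndufb2 (-0.295 ± 0.126, adjusted p = 0.822) and Uqcrq (0.255 ± 0.11, adjusted p = 0.838). All LPS, exposure and CBD comparisons above that hold GWVeh or GWVehLPS share those libraries.

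Ndufa12, an accessory subunit of complex I, was singled out after its values were seen. It was the most variable abundant member, with a pooled within-group SD of 0.495 on the log2 scale (Atp5k followed at 0.221). It had 22.65, 19.96 and 17.35 CPM in CtrlVeh and 24.36, 43.15 and 47.7 CPM in CtrlVehLPS. GWVeh had 20.84, 21.54, 19.52 and 18.54, and GWVehLPS 18.25, 41.19, 37.33 and 23.27. GWCBD30 had 18.83, 52.66, 19.5 and 43.94, and GWCBD30LPS 20.45, 39.63, 23.87 and 21.79. The values lay in separate ranges, 17.35 to 24.36 CPM in 15 libraries and 37.33 to 52.66 CPM in 7, and 4 of the 6 groups held libraries of both ranges. The LPS difference in control mice was 0.937 ± 0.41 (adjusted p = 0.364, and 1.05 with adjusted p = 0.044 by limma voom).

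The row Ndufa12-ps, excluded by the rule, is a processed copy on chromosome 5 (chr5:130188395-130188796, GRCm38). It had 20.78, 20.56 and 19.17 CPM in CtrlVeh and 25.73, 10.07 and 12.52 CPM in CtrlVehLPS. GWVeh had 27.18, 20.89, 21.38 and 20.47, and GWVehLPS 20.39, 15.12, 12.32 and 21.51. GWCBD30 had 18.75, 7.674, 17.84 and 11.59, and GWCBD30LPS 21.33, 11.92, 21.47 and 20.01. Each library that was high in Ndufa12 was low in the copy. The copy took between 12.7% (GWCBD30 replicate 2) and 56.6% (GWVeh replicate 1) of the counts of both rows. The sum of both rows was 43.43, 40.53 and 36.52 CPM in CtrlVeh and 50.09, 53.23 and 60.22 CPM in CtrlVehLPS. It was 48.02, 42.44, 40.9 and 39.01 in GWVeh, and 38.64, 56.31, 49.66 and 44.77 in GWVehLPS. GWCBD30 had 37.58, 60.33, 37.34 and 55.53, and GWCBD30LPS 41.78, 51.55, 45.34 and 41.79. The sum was thus not level: the 7 libraries high in Ndufa12 had sums of 49.66 CPM or more, and of the others CtrlVehLPS replicate 1 (50.09) lay among them. Over the 402 bases aligned to the 438-base coding sequence of Ndufa12 (chr10:94199045-94220861, 4 coding exons), 2 differ, A135G and T414C, counted from 1 at the start codon with the base of Ndufa12 first. The aligned stretches are 99.5% identical and share a run of 278 identical bases, longer than a 150-base read. How reads within the stretch divide between the rows rests on few bases and on the counting program. That program is not given in the sources used here. The principal transcript of Ndufa12 has 1110 bases, and its parts outside the aligned stretch were not compared. The windows around both differences are shown, with the differing base in capitals.
Ndufa12, chr10:94199968-94200027, plus strand, coding exon 2: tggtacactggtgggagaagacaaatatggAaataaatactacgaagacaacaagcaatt
Ndufa12-ps, chr5:130188463-130188522, plus strand: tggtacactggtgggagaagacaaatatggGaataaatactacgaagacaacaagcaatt
Ndufa12, chr10:94220807-94220861, plus strand, coding exon 4, ending in the stop codon: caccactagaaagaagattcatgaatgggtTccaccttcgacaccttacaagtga
Ndufa12-ps, chr5:130188742-130188796, plus strand: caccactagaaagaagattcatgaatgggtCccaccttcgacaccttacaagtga
The counts of Ndufa12 are therefore uncertain, and the counts by gene do not show which reads came from the gene and which from the copy.

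**Figure D5:**
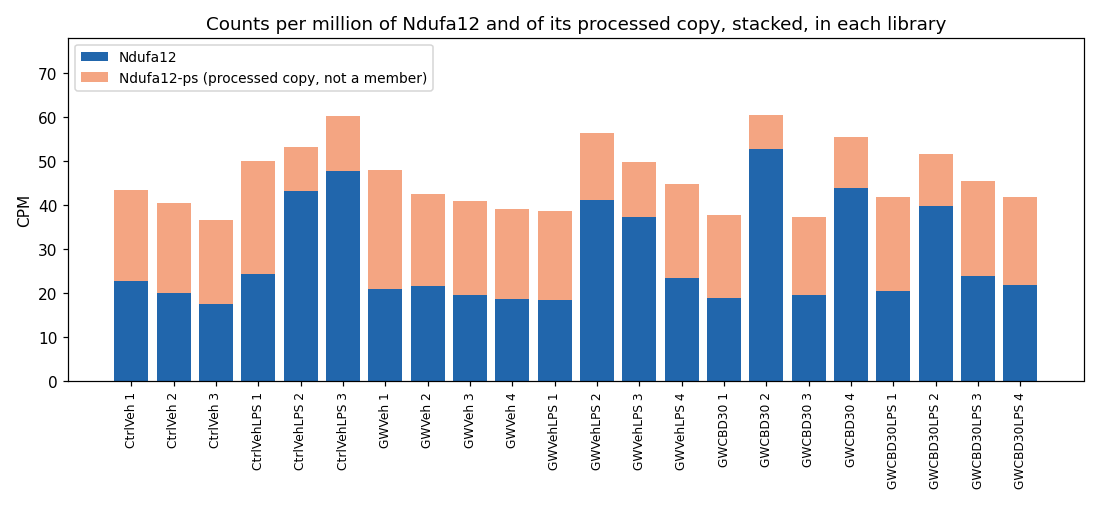
CPM of Ndufa12 and of the processed copy Ndufa12-ps, stacked, in each of 22 libraries. The Ndufa12 part is 37.33 to 52.66 in 7 libraries, where the copy part is low (7.674 in GWCBD30 replicate 2), and the parts are of like size in the other libraries.

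Other genes of the pathway were counted from lists. Of 17 complex I assembly factors, 1 passed in any comparison: Foxred1, an oxidoreductase needed for complex I assembly, fell with LPS over all arms by 0.182 ± 0.0435 on the log2 scale (adjusted p = 0.0131, and 0.0579 with bulb and cerebellar scores as covariates). In that comparison 3.52% of all genes were called. Assembly factors of complex II (4), III (6), IV (21 tested) and V (5 tested, with its inhibitor) had 0 past the threshold in every comparison. The same held for 13 mitochondrially encoded subunits, 77 mitochondrial ribosomal proteins, 17 genes of the citric acid cycle and pyruvate dehydrogenase and 12 regulators of mitochondrial biogenesis. It also held for 2 genes outside the symbol rule, the subunit gene Ndufab1 and the cytochrome c gene Cycs. Mitochondrially encoded subunits had a median of 0.376 for exposure under LPS, where the nuclear members had -0.0288, with 6 of 13 at an unadjusted p under 0.05 (7.73% of all genes). With PBS they had 0.102 and 0 of 13, and averaged over LPS states 0.232 and 9 of 13 (7.76% of all genes). Their smallest adjusted p was 0.0737 (mt-Nd6, exposure under LPS, edgeR). Their mean log2 CPM was 8.38, 8.499 and 8.484 in CtrlVehLPS and 8.72, 9.17, 8.564 and 8.801 in GWVehLPS. It was highest in GWVehLPS replicate 2, and the pooled within-group SD was 0.279. Their dependence on single libraries was not tested, and the 13 genes of 1 genome are not independent results. Of 80 cytosolic ribosomal protein genes, 2 rose with LPS in control mice (0.494% of all genes called), Rps2 and Rpl9 (0.372 ± 0.0878, adjusted p = 0.0406, and 0.32 ± 0.076, adjusted p = 0.0413). Both lost the call in 7 of 16 alternatives, among them without CtrlVehLPS replicate 1 (adjusted p = 0.158 and 0.126). With LPS over all arms (3.52% of all genes called) Rpl9 (0.165 ± 0.04, adjusted p = 0.0148) and Rpl13 (0.144 ± 0.0422, adjusted p = 0.0488) passed, and Rpl13 lost the call in 18 of 31 alternatives. Such genes have many processed copies, so their counts are uncertain.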

How the data were processed

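Raw read counts by gene, in whole numbers and not normalized as the values show, were deposited for 22 libraries. Per the labels' protocols, RNA of integrity 8.5 or above was poly(A)-selected, made into stranded libraries and read as 150-base pairs, with GRCm38/mm10 as the alignment build. Which aligner, counting program, strand setting and annotation were used is not given in the sources used here, so overlapping, antisense and near-identical genes are uncertain. Counts are reads, and depth covers counting error only. Whether same-group libraries came from separate litters or cages is not stated, so p-values measure the spread between these mice.

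The fit used edgeR 4.0.16 in R 4.3.3 (filterByExpr, TMM, robust quasi-likelihood, 6 group means, 16 residual degrees of freedom, 20026 genes). From it 12 contrasts were tested, two-sided, with p adjusted by Benjamini-Hochberg over all genes. Standard errors are the fold change divided by the root of F. CPM values are TMM-scaled, and the log2 CPM of the member levels used a prior count of 2. Gene positions and principal transcript lengths came from GENCODE M21, promoters from RefSeq. The fit was tested on simulated data, with changes set in genes at 10 CPM or more. Each simulation changed 100 genes 1.2-fold and 100 genes 1.5-fold at once, with noise drawn separately for each gene and library. For LPS the fit recovered 15% of 1.2-fold changes in control mice, 26% in exposed vehicle mice and 77% over all arms. With PBS it recovered 16% for exposure and 18% for CBD. Of 1.5-fold changes it recovered 88%, 96%, 100%, 84% and 92% in the same order. The many 1.5-fold changes ease the adjusted threshold, whereas the real exposure and CBD comparisons with PBS called 0 genes. Shifts shared by many genes of a library were not simulated. The recovery of 1.2-fold changes may therefore be lower in the real comparisons. DESeq2 1.42.0, limma 3.58.1 (voom), other scalings and filters, covariates and left-out libraries were alternatives.

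The members, lists and naming rule were chosen with earlier results of these data known. Named were core subunits, isoform pairs, the extremes per complex, and per comparison the members past the threshold or, failing any, the pair with the smallest p. Libraries of 1 group differed by more than sampling noise (chi-square per gene 3.92 to 20.9) and each counted as 1 sample.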

Additional observations from a re-analysis of the deposited data

Results flagged for a closer look

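In groups of 4 libraries, a value was picked out when its gap to the nearest group mate took more of the group's range than Dixon's 95% critical value allows. Of 188 such groups, over 47 levels and genes, 15 held a value picked out, and chance gives about 1 in 20. GWVehLPS replicate 2 was high in the complex V level, at 6.942 mean log2 CPM with its group mates at 6.71 to 6.749. It was also high in Atp5g3 (223.8 CPM against 175.6 to 178.2), Ndufa10 (145.5 against 115.3 to 118.5) and Sdhb (122.3 against 97.42 to 99.45), and low in Cox6b2 (1.575 against 2.935 to 3.172). GWVeh replicate 4 was low in Ndufa10 (106.3 CPM against 121.2 to 122.6) and Sdha (422.1 against 454.2 to 459.1). GWCBD30 replicate 4 was low in Sdha (416.4 CPM against 426.7 to 427.6) and high in Sdhd (75.22 against 67.15 to 68.39). GWCBD30LPS replicate 2 was low in Cox6a1 (237 CPM against 268.9 to 273.9) and Ndufs6 (24.38 against 30.11 to 30.29) and high in Cox7a2 (95 against 82.72 to 83.86). Ndufs6b was at 0.7339 CPM in GWCBD30 replicate 3 with the others at 0.2774 to 0.337, near the floor. The copy Ndufa12-ps was at 27.18 CPM in GWVeh replicate 1 (others 20.47 to 21.38) and at 11.92 CPM in GWCBD30LPS replicate 2 (others 20.01 to 21.47).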

How the results depend on the processing

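The number of members called was 0 in 256 of 260 recomputations over 33 alternatives, 22 of which left out a library. It was 1 by limma voom for LPS in control mice (Ndufa12) and over all arms (Ndufb4), 1 over all arms with no filter on low counts (Cox8a), and between 0 and 1 there when each library was left out, the 1 coming without GWVeh replicate 1. All genes called moved from 99 to between 20 and 644 for LPS in control mice and from 705 to between 385 and 1429 over all arms. No member median moved by as much as the pooled within-group SD of 0.0749. That SD is larger than most of the medians themselves, so staying under it does not show that they were stable. Signs changed in some alternatives for LPS in control, exposed vehicle and all arms, exposure under LPS or averaged, and CBD under LPS. Uqcr11 with LPS in control mice turned to -0.0252 with bulb and cerebellar covariates; the cause was not tested. Libraries of the same replicate number were weakly correlated in their deviations (-0.0885 to 0.133 over 51 pairs, 1 over 0.1). The median was 0.00917, against -0.0014 for other pairs. Of 22 libraries, 10 best matched their own number. How many would do so by chance was not worked out, so these values do not decide whether the numbers pair the libraries. With a replicate block 0 members were called in each comparison, and 124 genes for LPS in control mice. Leaving CtrlVehLPS replicate 1 out of every fit, taking abundant members alone and the exon union as gene length were choices made after seeing the data. A fit of the groups alone does not differ for LPS over all arms, which uses every group.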
